A study of Homo sapiens with 2 samples.

Results

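YBX1 and the genes of its cold-shock domain family, namely YBX1, YBX2, YBX3, LIN28A, LIN28B and CARHSP1, were examined as RNA targets of the YBX1 protein itself. The binding sites came from PAR-CLIP in HEK293, a human embryonic kidney line, with 2 replicates that the authors pooled into 1 list. A site was counted for a gene when its midpoint lay between the ends of that gene in GENCODE release 44 (GRCh38, the build of the file) on the strand of the site. By this rule the 6 genes held 4 of the 2054 listed sites. According to the methods, the cells were of a T-REx HEK293 Flp-In line, in which YBX1 that carries a FLAG/HA tag is stably overexpressed, and the protein was pulled down through FLAG. The labels instead name D2A11, an antibody to YBX1 itself. All samples shared this design, so there was no untreated, untagged or input sample to set against them. In PAR-CLIP, cells take up 4-thiouridine, which crosslinks to bound protein under UV light and is later read as C in place of T. The RNA was trimmed with RNase T1, which cuts single-stranded RNA after G. The list gives positions without read counts or scores, so the depth of each site is not known and no spread between replicates can be given.

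The cold-shock domain is a small beta-barrel that binds single-stranded RNA or DNA, largely through aromatic side chains of its RNP1 and RNP2 motifs. Y-box proteins (YBX1, YBX2 and YBX3) join it to long, basic tails and package mRNA into particles, which affects stability and translation. YBX1 protein is known to bind its own mRNA and to lower its translation. LIN28A and LIN28B join the domain to zinc knuckles and block the maturation of the let-7 miRNAs. CARHSP1 is a small cold-shock protein that binds mRNA 3′UTRs.

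The sequences of the 4 sites are shown because they are all that the list holds for the family. They are written 5′ to 3′ on the RNA strand, with T for U, and capitals mark matches to the short motifs that are named with their counts further on.
YBX1 5′UTR: ttacCATCaCACCccgggaggagccg
YBX1 coding: ctatccacgtcgtaggggtcctccacg
YBX3 3′UTR: ccaCAACcttaacCAACACCaaag
LIN28B 3′UTR: cagtaccttaacttcatatg
All 4 began after a G and ended in G, as 79.2% and 87.6% of all listed sites did. They differed from each other in base content. The YBX1 coding site and the LIN28B site held none of the motifs, and the YBX3 and LIN28B sites both lay in 3′UTRs.

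YBX1, YBX3 and LIN28B had at least 1 site, and YBX2, LIN28A and CARHSP1 had none. Among all 20046 protein-coding genes, 6.81% had a site by the same rule, against which 3 of 6 is a larger share. The 6 genes were chosen with results of these data known, so no test was made of this difference. YBX1 carried 2 sites (exact Poisson 95% interval 0.242 to 7.22, counting error only), YBX3 1 and LIN28B 1 (0.0253 to 5.57 each). These intervals overlap, and 0 sites allowed up to 3.69, so the genes cannot be put in an order by number of sites. Of the 1366 bound protein-coding genes, 77.7% had 1 site and 14.6% had 2. Expression in HEK293 cells is not in the list, so a gene without a site is not shown to be unbound. For the same reason, the share of all protein-coding genes counts genes whether or not they are expressed.

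**Figure D1:**
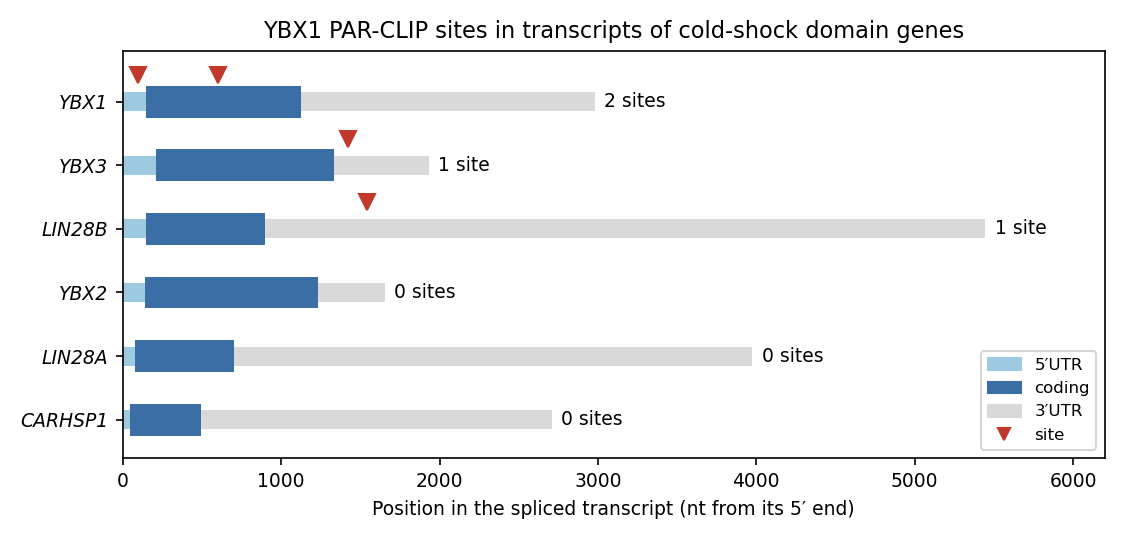
Sites (triangles) along the MANE Select transcript of each gene, drawn to scale in nt from the 5′ end, with the 5′UTR, coding sequence and 3′UTR in separate shades. YBX1 had its 2 sites in the 5′UTR and the coding sequence, YBX3 and LIN28B had 1 each in the first part of the 3′UTR, and the other 3 genes had none.

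By region, 1 of the 4 sites lay in a 5′UTR, 1 in coding sequence and 2 in 3′UTRs. Of all listed sites, 1.17% lay in 5′UTRs (24 of 2054, Wilson 95% interval 0.786 to 1.73), 23.6% in coding exons (21.8 to 25.4) and 55.4% in 3′UTRs (53.2 to 57.5). Counted by gene, a 5′UTR site was present in 1 of the 6 genes and in 0.125% of protein-coding genes. A coding site was present in 1 of the 6 and in 2.03%, and a 3′UTR site in 2 of the 6 and in 4.41%. The authors' annotation gave the same class to each of the 4 sites. None lay in an intron, and no other annotated gene on either strand covered any of them.

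The YBX1 gene lies on chromosome 1 from 42682418 to 42703805 on the plus strand (ENSG00000065978.19). Its MANE Select transcript of 2979 nt has 8 exons, with 148 nt of 5′UTR, 975 nt of coding sequence and 1856 nt of 3′UTR. The 5′UTR site ran from 42682501 to 42682526 in exon 1, at nt 84 to 109 of the transcript, with 39 nt between it and the start codon. Sites in 5′UTRs were few in this list, and 22 could be placed in the 5′UTR of the main transcript of a gene. By midpoint, 9 of these 22 lay closer to the start codon than the YBX1 site, whose midpoint was 52 nt before it. At 65.2% of the length of its 5′UTR, the YBX1 site was close to the median of the 22 (65.8%).

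The coding site of YBX1 ran from 42696728 to 42696754 in exon 5, beginning at nt 441 of the coding sequence. It covered codons 147 to 156 of 325, the stop codon included. The RNP1 motif of the cold-shock domain begins at codon 71, so the site lay downstream of that motif. The end of the domain was not located. The site was 86 nt from the start and 190 nt from the end of its exon of 303 nt, and so did not reach an exon junction. RNA of the tagged transgene holds the same coding sequence, and its reads at this site cannot be told apart from those of the endogenous YBX1 mRNA. The methods do not give the untranslated regions of the construct, so whether its RNA could also hold the 5′UTR site is not known. The 1856 nt of the YBX1 3′UTR held no listed site. When all protein-coding genes were split into 5 classes by 3′UTR length, 6.32% of the genes in its class (1512 to 2839 nt) had a 3′UTR site.

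Few genes had sites placed as in YBX1. A 5′UTR site was found in 25 protein-coding genes, of which 5 also had a coding site. Apart from YBX1, 3 genes had exactly 1 site in the 5′UTR, 1 in the coding sequence and 0 in the 3′UTR. These were SLC20A1, a phosphate transporter with a transcript of 3297 nt, HSP90AB1, a cytosolic chaperone (2555 nt), and TOR1AIP2, a protein that activates torsin ATPases (8319 nt). The 5′UTR sites of HSP90AB1 and SLC20A1 had midpoints 10 nt and 17 nt before the start codon, nearer than that of YBX1, and that of TOR1AIP2 was 295 nt before it.

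YBX1 has 10 annotated processed pseudogenes (YBX1P1 to YBX1P10), which are reverse-transcribed copies of its mRNA inserted elsewhere in the genome. The copies of the sites in the pseudogenes are shown because short reads have to tell them apart. Each site sequence occurred once in the genome without a mismatch, as did 91.8% of all sites with a sequence. Each YBX1 site, however, had 3 copies elsewhere that differed at 1 base. Capitals mark the differing base.
5′UTR site, copy beside YBX1P1: ttaccGtcacaccccgggaggagccg
5′UTR site, copy beside YBX1P6: Ctaccatcacaccccgggaggagccg
5′UTR site, copy beside YBX1P10: ttaccatcacaccccgggagAagccg
Coding site, copy in YBX1P1: ctatccacgtcCtaggggtcctccacg
Coding site, copy in YBX1P2: ctatccacgtcAtaggggtcctccacg
Coding site, copy in YBX1P6: ctatccacgtcgtaggggtcctccacC
The copies of the 5′UTR site lay on chromosome 14 (66013829 to 66013854), chromosome 9 (109534372 to 109534397) and chromosome 9 (35972358 to 35972383). All 3 were on the strand of the pseudogene and 40 nt outside its annotated end. With positions counted from 1 at the 5′ end of the site and the base of YBX1 first, they differed by A6G, T1C and G21A, in the order shown. The copies of the coding site were on chromosome 14 (66013335 to 66013361), chromosome 7 (105582762 to 105582788) and chromosome 9 (109533864 to 109533890), inside the pseudogenes. The copy on chromosome 7 also lay within the protein-coding gene EFCAB10 on the same strand. The copies of the coding site differed by G12C, G12A and G27C. T1C is a T-to-C difference, so a read of the 5′UTR site converted at its first base has the letters of the copy beside YBX1P6. None of the 15 annotated pseudogenes of the 6 genes held a listed site, and none was listed at any of these copies.

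**Figure D2:**
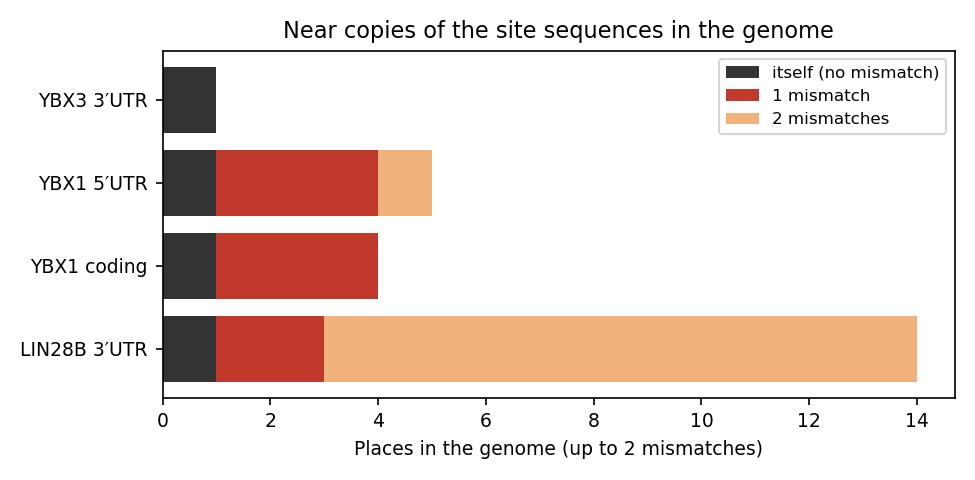
Number of places on the primary chromosomes, both strands, that hold each site sequence without a mismatch (the site itself) or with 1 or 2 mismatches. The YBX3 site had no near copy, and each YBX1 site had 3 copies with 1 mismatch. The YBX1 5′UTR site also had 1 with 2 mismatches, on chromosome 15. The LIN28B site had 2 with 1 mismatch and 11 with 2. The sites differ in width (LIN28B 20 nt, YBX3 24 nt, YBX1 26 nt and 27 nt). Width was not accounted for, so the counts cannot be compared across sites.

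YBX3 and YBX2 share the coding region of YBX1 in part. In an alignment of the coding sequences, YBX3 was identical to YBX1 at 63.3% of 966 aligned bases and YBX2 at 54.5% of 916. In the window of the YBX1 coding site, YBX3 matched 18 of 27 bases without a gap, while YBX2 matched 9, differed at 11 and had a gap at 7. The YBX3 window is shown with its differing bases in capitals, to set beside the YBX1 site.
YBX3 window: ctatGGaAgGcgCCgTggCcctccCcg
No site was listed in the coding sequence of YBX3 or YBX2, so the coding site was listed in 1 of the 3 Y-box genes. The cells overexpress tagged YBX1, and reads of its transgene may add to the YBX1 site. The 3 genes therefore cannot be compared on equal terms.

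YBX3 (chromosome 12, 10699089 to 10723323, minus strand, ENSG00000060138.13) encodes a Y-box protein also known as DBPA. Its site ran from 10699584 to 10699607 in the last exon, exon 10 of 10 in the MANE Select transcript and exon 9 of 9 in the transcript that the authors' annotation cites. It began 82 nt after the stop codon in a 3′UTR of 600 nt, at 15.6% of its length. The 3′UTR is short, and in the class of genes with 3′UTRs of 308 to 739 nt, 1.89% had a 3′UTR site and 3.84% had any site. Of the 24 bases, 10 were C and 11 were A, so C and A made up 87.5%, more than in 99.7% of the 2049 sites with a sequence. Only 2 bases were U, the base that 4-thiouridine replaces, and these adjoined each other. This U share of 8.33% was undercut by 0.439% of the sites. The sequence held CACC, CAAC and AACA, of which CAAC occurred at 2 places. Its nearest relatives elsewhere in the genome differed at more than 2 bases.

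YBX2, a Y-box protein known for storing mRNA in germ cells (chromosome 17, 7288263 to 7294639, minus strand), had no site in a transcript of 1654 nt, of which 420 nt were 3′UTR. It fell in the same class of 3′UTR lengths as YBX3. The mRNAs of the 2 Y-box genes other than YBX1 thus differed in having a site, but 1 site against 0 is within counting error.

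LIN28B (chromosome 6, 104936616 to 105083332, plus strand, ENSG00000187772.8) had 1 site from 105079421 to 105079440 in its last exon, which holds the whole 3′UTR of 4549 nt. The site began 638 nt after the stop codon, at 14.2% of the 3′UTR. In the site 6 bases were A, 5 were C, 7 were U and 2 were G. C and A made up 55.0%, below the median of all sites (61.5%), and the site held none of the 6 motifs. The genome holds the sequence with 1 mismatch at 2 other places, both outside genes on their strand, and with 2 mismatches at 11. At 20 nt this was the shortest of the 4 sites, and width was not accounted for in these counts. LIN28A (chromosome 1, 26410817 to 26429728, plus strand) had no site in a 3′UTR of 3270 nt. Both LIN28 genes belonged to the class with the longest 3′UTRs, in which 12.4% of genes had a site and 9.54% had one in the 3′UTR. The sites of YBX3 and LIN28B both lay before the lower quartile of 977 sites in 3′UTRs of main transcripts (19.9%, with a median of 43.2% and an upper quartile of 69.7%). CARHSP1 (chromosome 16, 8852942 to 8869012, minus strand) had no site in a transcript of 2709 nt, of which 2217 nt were 3′UTR.

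**Figure D3:**
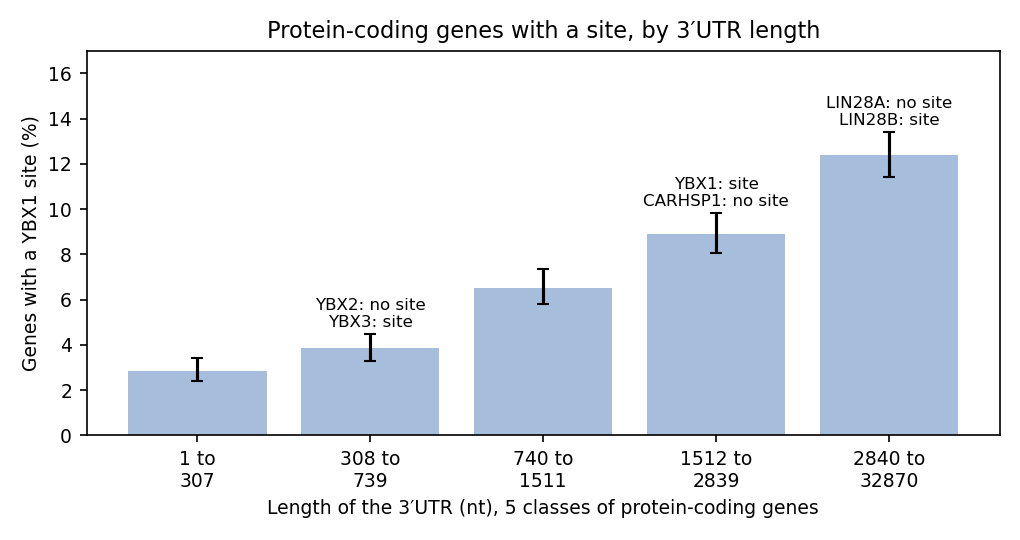
Percent of protein-coding genes with a YBX1 site in each of 5 classes of 3′UTR length with near equal numbers of genes, with Wilson 95% intervals, and the class to which each of the 6 genes belongs. The share was 2.86% in the shortest class and 12.4% in the longest, and each class that held family members held 1 with a site and 1 without.

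Per kb of spliced transcript, YBX1 had 0.671 sites, YBX3 0.518 and LIN28B 0.184. The median of the 1238 protein-coding genes with a site in an exon was 0.303 per kb. YBX1 and YBX3 lay above this median and LIN28B below it, as a description of counts of 1 or 2.

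In base content the 4 sites covered much of the range of all sites. C and A together made up 87.5% of the YBX3 site, 61.5% of the YBX1 5′UTR site, 55.0% of the LIN28B site and 51.9% of the YBX1 coding site. The quartiles of all sites were 54.2% and 68.2%. Pooled over their 97 bases, the 4 sites held 63.9% C and A, and all sites held 60.6%. The single sites lay on both sides of the value of all sites, and with 4 sites no test was made of the difference. Both YBX1 sites were rich in G, with 7 each, and 5.56% of all sites held as many or more. The median site held 1 G. Leaving G out, C and A made up 84.2% of the YBX1 5′UTR site, more than in 95.9% of all sites, and 70.0% of the coding site, more than in 65.4%. The U share was 11.5% in the 5′UTR site and 22.2% in the coding site of YBX1, and 35.0% in LIN28B, where the median of all sites was 31.6%. All 7 G of the 5′UTR site of YBX1 lay after its CACC, in the part nearer to the start codon.

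**Figure D4:**
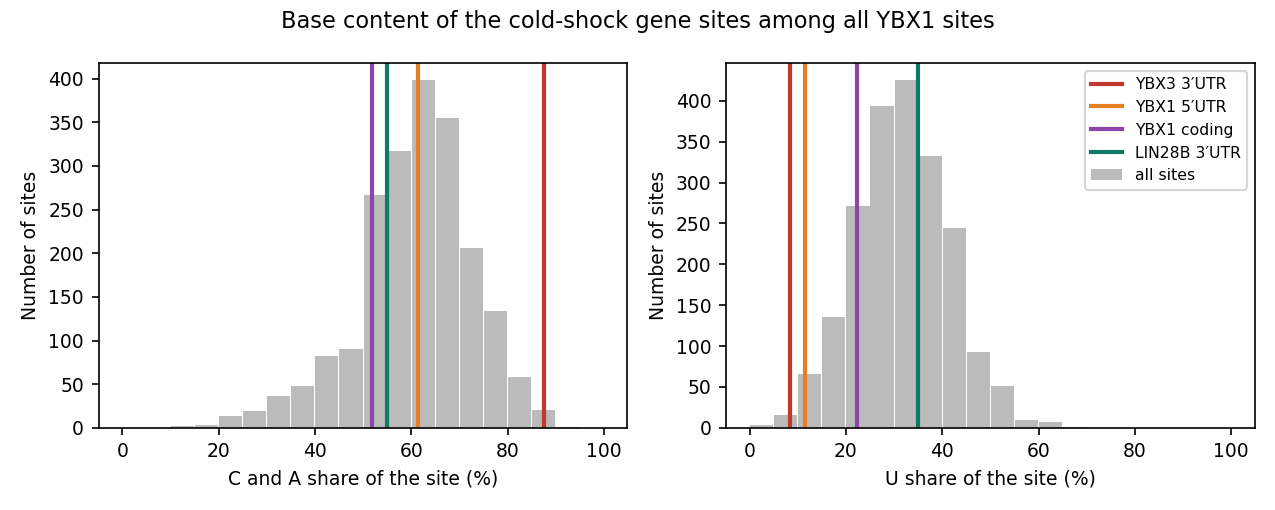
Share of C and A (left) and of U (right) in each of the 4 sites (vertical lines), over histograms of 2049 listed sites in bins of 5 percentage points. YBX3 lay near the upper end for C and A (87.5%) and near the lower end for U (8.33%), while LIN28B lay inside the bulk of the sites on both.

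The motifs searched, on the RNA strand only, were the tetramer CAUC with its longer form UCAUC, which contains it, the related pentamer UUAUC, and the tetramers CACC and CAAC along with AACA. CAUC was present in 1 of the 4 sites (YBX1 5′UTR) and in 25.0% of all sites, and CACC in 2 of the 4 (YBX1 5′UTR and YBX3) and in 14.6%. CAAC and AACA were each present in YBX3 alone among the 4, and in 26.6% and 30.9% of all sites. UCAUC and UUAUC were in 0 of the 4 sites and in 8.64% and 4.34% of all sites. The YBX1 coding site and the LIN28B site held none of the 4 tetramers, as did 39.6% of all sites. YBX3 held 3 of the 4 tetramers, as did 7.22% of all sites. The sites were 20 nt (LIN28B), 24 nt (YBX3), 26 nt and 27 nt (YBX1 5′UTR and coding) wide, and the median of all sites was 22 nt.

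Other genes with cold-shock domains were described beside the family. DIS3, the catalytic subunit of the nuclear exosome, had 1 site, which lay in the coding sequence of its MANE Select transcript. In GENCODE this site also falls in the 3′UTR of another transcript of the gene, and by the rule that any transcript with a 3′UTR decides it counted as 3′UTR. CSDC2, DIS3L and DIS3L2 had 0. By main transcript, coding sites were thus seen in YBX1 and DIS3, while the sites of YBX3 and LIN28B were in 3′UTRs. By the rule used for the counts, that of DIS3 was a 3′UTR site too.

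Among 22 genes of proteins that bind mRNA together with YBX1, 8 had a site (36.4%), beside 3 of 6 in the family and 6.81% of all protein-coding genes. The highest numbers were 5 in G3BP1, a stress granule protein, and 4 in SERBP1, an mRNA-binding protein of ribosomes, followed by 3 in HNRNPU, a nuclear RNA-binding protein, and 2 each in IGF2BP1, an mRNA-stabilising protein of fetal tissues, and PURA, a single-stranded nucleic acid-binding protein. All sites of these 5 genes lay in 3′UTRs, whereas YBX1 had none in its own. A sequence that occurs once in the genome was found for 4 of 5 sites in G3BP1 and 1 of 2 in PURA. For SERBP1, HNRNPU and IGF2BP1 it was found for all sites. Their 3′UTRs were longer, from 4153 nt (HNRNPU) to 10469 nt (PURA), against 1856 nt in YBX1. Over the 5 classes of 3′UTR length, the share of genes with a 3′UTR site rose from 1.13% to 9.54%. Of 16 genes of the let-7 pathway, in which the LIN28 proteins act, 5 had a site (31.2%). Among these were CCND2 with 5 sites, NRAS with 3, IGF2BP1 with 2 and CDK6 with 1, growth genes whose mRNAs let-7 is known to repress, with IGF2BP1 in both lists. A sequence that occurs once in the genome was found for 2 of 3 sites in NRAS and for all sites of CCND2, IGF2BP1 and CDK6. The genes of let-7 processing in the list, DICER1, DROSHA, DGCR8, TUT4, TUT7 and DIS3L2, had 0 sites. HMGA2, CCND1, CDC25A, E2F2 and TRIM71, also in the list, had 0 sites as well. The 3′UTRs of the list ranged from 562 nt in DIS3L2 to 10219 nt in CDK6, and this length was not accounted for. Expression in HEK293 cells was not accounted for in either list or in the share of all protein-coding genes. The lists were chosen with results of these data known and were not tested.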

How the data were processed

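PAR-CLIP reads of 2 replicates were pooled by the authors into 1 deposited list of 2054 sites, which holds positions, strand, gene name and annotation, and no read count or score. Per the methods and the labels, reads were trimmed with cutadapt (version 1.4.1), aligned by the PARA-suite pipeline to the genome (GRCh38) and to transcripts, stacked into stranded clusters with BMix at default parameters and annotated with HOMER. Positions were read as starting at base 1, with the last base 1 before the listed end, where the G that RNase T1 leaves was found. Pooling means that a site may come from either replicate, and p-values between conditions could not be had.

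Sites were placed by midpoint on their own strand in GENCODE release 44. Where transcripts disagreed, 3′UTR took precedence over coding exon, 5′UTR, noncoding exon and intron. Positions along a transcript refer to the MANE Select or canonical one. The 5 sites wider than 100 nt, which span introns, had no sequence values. Matches in the genome were sought over the primary chromosomes on both strands, exactly and with up to 2 mismatches. Coding sequences were aligned with mafft (version 7.526), and other steps used Python (3.11.15), pysam (0.24.0) and scipy (1.17.1). Sequences of miRNAs came from RefSeq (GRCh38). Placement was tested on 200 simulated transcripts, where 4000 of 4000 positions were placed as made.

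The 6 genes and the gene lists were chosen with earlier results of these data known, so counts were set beside those of all protein-coding genes and no test was made. Named were the 6 genes, pseudogenes with a site (none had one), all other cold-shock genes of the list, up to 4 genes with the most sites of each other list, and up to 5 genes with the site pattern of YBX1. PURA (tied with the fourth gene of its list), the bound let-7 gene CDK6 and the let-7 genes without a site were named after their values were seen. The same holds for EFCAB10 and the pseudogenes at copies of sites. Some genes that this rule would name are not reported here. Alternatives were any overlap of at least 1 base, no regard to strand, the authors' gene names or classes, merging of sites within 50 nt, only the wider part of the sites (above the median width), exon sites alone, coding exons first, 1 transcript per gene, another end position, sites extended by 10 nt, bases without G, and the middle 16 bases for matches. Copies with mismatches were added after seeing the data.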

Additional observations from a re-analysis of the deposited data

How the results depend on the processing

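The number of sites in the 6 genes was 4 under any overlap, without regard to strand, with the authors' gene names, in exons alone and with near sites merged. When sites of median width or less were dropped, 3 sites remained in 2 genes, since the LIN28B site is narrow, and 1 site was in a 3′UTR. In that setting 734 protein-coding genes had a site, against 1366 with all sites. The C and A share of the 4 sites was 77.5% without G, where all sites held 65.9%, and 61.0% with 10 nt added on each side, where all sites held 54.7%. All 4 sequences occurred once in the genome as whole sites, as did 91.8% of the 2049 sites with a sequence. By their middle 16 bases 0 of the 4 did. Allowing 1 mismatch, 1 whole site did, that of YBX3, and likewise 1 when 2 mismatches were allowed. The share of all sites is not given for the middle 16 bases or for mismatches. These counts therefore do not set the 4 sites apart from the other listed sites. The classes of the 4 sites were the same with coding exons first, 1 transcript per gene and the authors' annotation. The numbers over all sites did depend on the rule. With 3′UTR first, 1137 sites were in 3′UTRs and 484 in coding exons. In main transcripts of protein-coding genes these were 977 and 652. The authors' annotation gave 726 in 3′UTRs and 562 in exons. No paired analysis was possible because the replicates were pooled into 1 list, and neither replicate could be left out. The depth behind each site is unknown.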

Other observations

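The sites of YBX3 and LIN28B, both in 3′UTRs, shared a run of 8 bases, ACCTTAAC, which began at base 6 of the YBX3 site and base 5 of the LIN28B site. It was present in 10 of the 2049 sites with a sequence (0.488%), these included. The run was noticed on reading the sequences and was not tested. The other pairs of the 4 sites shared at most 5 bases in a row, which was ACACC in YBX3 and the YBX1 5′UTR.

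The 3′UTR of LIN28B held 4 matches to the seed of the let-7 miRNAs, CTACCTC, at nt 44, 2471, 2653 and 4092 after the stop codon. The mature let-7a is shown with its seed, bases 2 to 8, in capitals, as RefSeq (GRCh38.p14) gives it. All 11 mature let-7 entries searched share this seed.
hsa-let-7a-5p: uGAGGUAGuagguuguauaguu
Of the 3910 genes in the class with the longest 3′UTRs, 25.0% held at least 1 match and 0.256% held 4 or more. The YBX1 site in LIN28B began 594 nt from the start of the nearest match, and so did not overlap it. LIN28A held 1 match, YBX2 held 1, and YBX1, YBX3 and CARHSP1 held none. The seed was searched on the RNA strand only, and a match is a description of letters, not a site of repression.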
